A study of Mus musculus with 2 samples.

Results

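The genes described are 9 genes of the circadian clock, Per1, Per2, Per3, Dbp, Nr1d1, Nr1d2, Tef, Cry1 and Cry2, whose transcripts in many tissues follow the time of day. They were named from knowledge of the clock, with earlier results of these data already known. Every probe set that the array's annotation pairs with 1 of them alone was taken. These were 20 of the 45101 probe sets on the array, so that 9 of 18194 named genes are described. The signals come from cerebrum RNA of mice at postnatal day 14 (P14), with 1 array for the wild-type and 1 for the mutant. The wild-type sample carried no named allele. The mutant carried laggard (lag), a recessive splice-site mutation of the kinesin gene Kif14 that arose spontaneously in mice of mixed strain and was backcrossed to C57BL/6J. The labels give neither the number nor the sex of the mice behind either sample, nor the hour at which the cerebrum was taken; the study kept its mice in a light-dark cycle. The clock genes are therefore read beside that unstated hour, which they cannot settle.

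The clock is a loop of transcription. The factors ARNTL and CLOCK, or NPAS2 in the forebrain, bind E-box sequences and switch on the Per and Cry genes, whose proteins return to the nucleus and block that activation. The same E-boxes drive Nr1d1 and Nr1d2, which encode the REV-ERB repressors of Arntl, and Dbp and Tef, which encode PAR bZIP activators of D-box sequences. Nfil3 encodes a repressor of the same D-boxes. In many tissues of nocturnal rodents Dbp, Tef, Nr1d1, Nr1d2 and the Per genes are high towards the end of the light phase, Arntl and Npas2 are high at the opposite phase, and Cry1 lags behind the Per genes. Whether these genes cycle in P14 cerebrum cannot be read from 1 sample per genotype, and unlike hours on either side of a peak can give like levels.

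Some of the sequences through which the members are tied to each other stand in promoters, and those found there are shown as background. The comparisons below do not use them to choose genes. RefSeq promoters of build GRCm38.p6, 250 bases before to 50 after a start site, were at hand for 8 of the 9 genes, in 10 promoters, with more than 1 start for Per1 and Tef. Per2 had no entry. The E-box CACGTG was found in 4 of the 10 promoters, those of Cry1, Per1 and Tef (both starts), against 7.15% of all 32851 promoters. The D-box, searched on both strands as TTATGTAA and TTACGTAA, was found in 1 of the 10, that of Per3, which holds it 2 times, against 1.06% of all promoters. Each stretch below is 30 bases, 5′ to 3′ on the gene's strand, with the motif in capitals.
Cry1 E-box, 60 bases before the start, chr10:85185097-85185126, minus strand: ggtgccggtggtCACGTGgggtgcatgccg
Per1 E-box, 166 bases before the start, chr11:69098771-69098800, plus strand: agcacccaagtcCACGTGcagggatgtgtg
Tef E-box, 127 bases before the upstream start, chr15:81802534-81802563, plus strand: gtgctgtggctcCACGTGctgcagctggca
Tef E-box, 138 bases before the downstream start, chr15:81811264-81811293, plus strand: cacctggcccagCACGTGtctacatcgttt
Per3 D-box, 205 bases before the start, chr4:151044852-151044881, minus strand: cgacccgcgcgTTATGTAAggtactcgggg
Per3 D-box, 158 bases before the start, chr4:151044805-151044834, minus strand: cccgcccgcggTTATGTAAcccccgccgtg
The cyclic AMP response element TGACGTCA, searched in the same way, was in none of the 10 and in 1.79% of all promoters, and the nuclear receptor hexamer AGGTCA, on either strand, was in 2 of the 10, those of Nr1d2 and Per1, and in 16.3% of all. A match says only that the letters are there, and no match only that they are not in these windows.

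The clock genes differed little between the genotypes. A value here is the linear MAS5 signal of a probe set, and a difference is the log2 ratio of mutant over wild-type signal. Each gene is given by its brightest probe set (highest signal averaged over both arrays), and signals under a background level of 56.5 were raised to it, so that such a ratio is a bound. By this value the 9 genes lay between -0.31 and 0.10, and none differed 1.5-fold or more in either direction. Across the 13521 genes above the level on either array, 3.25% were 1.5-fold lower or more in the mutant and 3.88% were 1.5-fold higher or more, and 0.932% and 0.614% were past 2-fold. With shares of that size, a count of 0 among 9 genes is near the background. The median ratio of the 9 was -0.002, that of all 13521 genes 0.010, and 5 of the 9 ratios were below 0. With both arrays scaled to the same median signal 4 of the 9 were below 0 and the median was 0.086, and with a gene's probe sets averaged 6 were and the median was -0.147. With 1 array per genotype no test was possible, since nothing measures how mice of 1 genotype vary.

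The period genes encode the PER proteins, the negative limb of the loop. Per1, which also responds within minutes to light, neuronal activity and stress hormones, had a single probe set, which read 544 in the wild-type against 439 in the mutant. Its log2 ratio of -0.31, or 1.24-fold lower, was the lowest of the 9 genes. The SD of the log2 ratio across genes was 0.382 in the brightness quartile (genes above the level cut into 4 equal parts by mean signal) that held Per1, so Per1 lay within the spread of genes of like signal. Per2, a partner of Per1 in the repressor complex, had signals of 211 on both arrays by its brightest probe set. Another Per2 probe set went from 66.6 to 19.6, the latter under background, and was lower by at least 1.18-fold, and the remaining Per2 probe set was under background on both arrays. Per2 lies on chromosome 1, as Kif14 does.

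Per3, a period gene that the core loop can run without, was the member whose probe sets differed most. Its brightest probe set read 285 in the wild-type against 247 in the mutant, a log2 ratio of -0.21. Of the dimmer ones, the probe set at 183 and 106 was 1.73-fold lower, that at 150 and 96.5 was 1.56-fold lower, and that at 116 and 80.5 was 1.45-fold lower. The probe set at 68.0 and 36.0 was lower by at least 1.20-fold, and the last, at 13.4 and 15.3, was under background on both arrays. All 5 Per3 probe sets above the level were thus lower in the mutant, and the mean of their log2 ratios was -0.49 against -0.21 for the brightest. Of 438 genes with at least 5 probe sets above the level, 44 (10%) had every such probe set lower, a comparison chosen after the values of Per3 were seen. In the dimmest quartile of probe sets above the level 47.2% had a lower signal in the mutant, and in the next quartile 49.3%; the part of low signal in the Per3 values was not tested. The probe sets of 1 gene share its RNA and are not replicates, and which transcripts each one reads was not examined here.

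Dbp and Tef are the activators of D-boxes. Dbp, a PAR bZIP factor with a strong daily rhythm in many tissues, had signals of 1453 and 1364 by its brightest probe set, which carries the suffix of probes shared between transcripts, and 666 and 579 by its other one. The log2 ratios were -0.09 and -0.20, both lower in the mutant and both under the SD of 0.287 across genes of their brightness quartile. Tef, the related PAR bZIP factor whose promoters above hold an E-box, had signals of 1790 and 1796, a ratio of 0.01. A dim Tef probe set went from 76.8 to 53.9, under background, lower by at least 1.36-fold, and another from 61.5 to 59.1. The brightest probe sets of both activators thus differed by 1.07-fold or less.

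The genes of the REV-ERB repressors had ratios of opposite sign, both within the spread of genes of like signal. Nr1d1, which encodes REV-ERB alpha and turns Arntl off, had a single probe set with signals of 126 and 103, a log2 ratio of -0.30 or 1.23-fold lower. That signal is dim, and the SD across genes of its brightness quartile was 0.439. Nr1d2, which encodes REV-ERB beta, had the brightest signals of the members, 3678 and 3931, and the highest ratio, 0.10, against an SD of 0.256. Signals of different probe sets are not comparable as levels, so this does not rank the 2 genes. The cryptochromes, the repressors that act with the PER proteins, were both slightly higher in the mutant: Cry1, which holds an E-box before its start, had signals of 383 and 395 and a ratio of 0.04, and Cry2 had 1135 and 1201 and a ratio of 0.08. Of the 9 genes, Per1, Per3, Dbp and Nr1d1 had ratios below 0 and Nr1d2, Cry1 and Cry2 above 0 under each of the 8 alternative settings that gave a value, and Per2 and Tef changed sign between settings. The settings that change only the background level could not move these ratios.

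**Figure D1:**
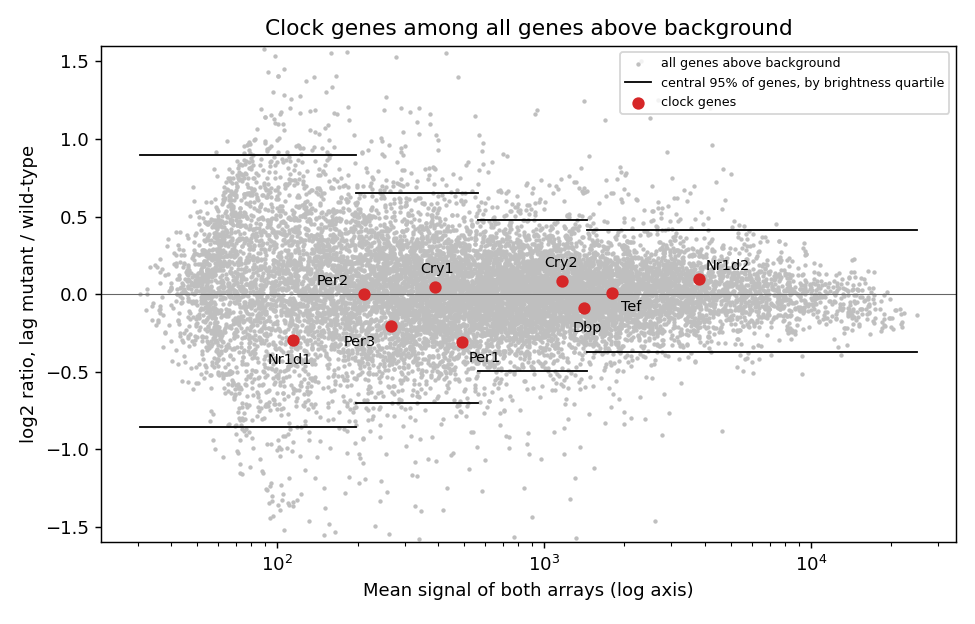
Ratio of mutant to wild-type signal (log2) against the mean signal of both arrays (log axis) for 13521 genes above background (grey), with the 9 clock genes in red and black lines at the limits of the central 95% of genes in each brightness quartile; 55 genes lie beyond the axis at 1.6 in either direction. All 9 clock genes lie inside these limits.

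By the brightest probe set, all 9 clock genes lay inside the central 95% of the genes of their own brightness quartile, and all 9 were within 1 SD of 0. With probe sets averaged, Per3 was at -0.49, inside those limits but beyond the SD of 0.382 across genes of its quartile. The limits were -0.86 and 0.90 for the dimmest quartile, which holds Nr1d1, -0.70 and 0.65 for the next, which holds Per1, Per2, Per3 and Cry1, and -0.37 and 0.41 for the brightest, which holds Nr1d2 and Tef. These limits are a spread across genes on 1 pair of arrays and include whatever the genotype changed; they are not an error of any gene.

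The genes with opposite daily phases were compared next, since an unlike hour of sampling can part them. Of the 12 genes on the dusk-phase list, for the end of the light phase (the 7 members other than Cry1 and Cry2, and Hlf, Bhlhe41, Ciart, Usp2 and Wee1), 11 were above the level, 8 of them with a lower and 3 with a higher signal in the mutant, and the median log2 ratio was -0.01. With both arrays scaled to the same median signal, 4 of the 11 were lower. On the list for the opposite or late phase 5 genes were measured (Arntl, Npas2, Clock, Cry1 and Nfil3), 3 lower and 2 higher, and the median was -0.004. The medians of the lists differed by -0.010 on the log2 scale, dusk-phase list minus opposite list. That difference depended on the probe sets: with a gene's probe sets averaged, 9 of the 11 dusk-phase genes were lower, the medians were -0.13 and 0.02, and they differed by -0.156. In the other 7 settings the difference lay between -0.012 and -0.010. Most of these could hardly move it: a changed background level leaves the ratio of a gene above it as it was, and equal medians shift both lists alike. Hlf, the third PAR bZIP factor, had signals of 690 and 656, Usp2, a deubiquitinase with a strong daily rhythm in many tissues, 842 and 834, Wee1, a cell cycle kinase under E-box control, 350 and 346, and Ciart, a repressor of CLOCK and ARNTL, 211 and 219. Bhlhe41 was under background on both arrays. On the opposite side Arntl had 608 and 543, Clock 893 and 890, and Npas2 444 and 496. Npas2 was thus 1.12-fold higher and Arntl, its relative in phase, 1.12-fold lower, and another Arntl probe set had a ratio of 0.21.

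By the brightest probe set of each gene, Nfil3 was the exception among the clock genes. Its single probe set read 348 in the wild-type against 201 in the mutant, a log2 ratio of -0.79 or 1.73-fold lower. This lay outside the central 95% of its brightness quartile, whose lower limit was -0.70. Per3, whose promoter holds the D-box 2 times, had a ratio of -0.21 by its brightest probe set and of -0.49 with its probe sets averaged. A link between Nfil3 and Per3 was not tested. Nfil3 also responds to signals other than the clock, and the cause of its lower signal was not tested. Without Nfil3 the median of the opposite-phase list was 0.021.

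**Figure D2:**
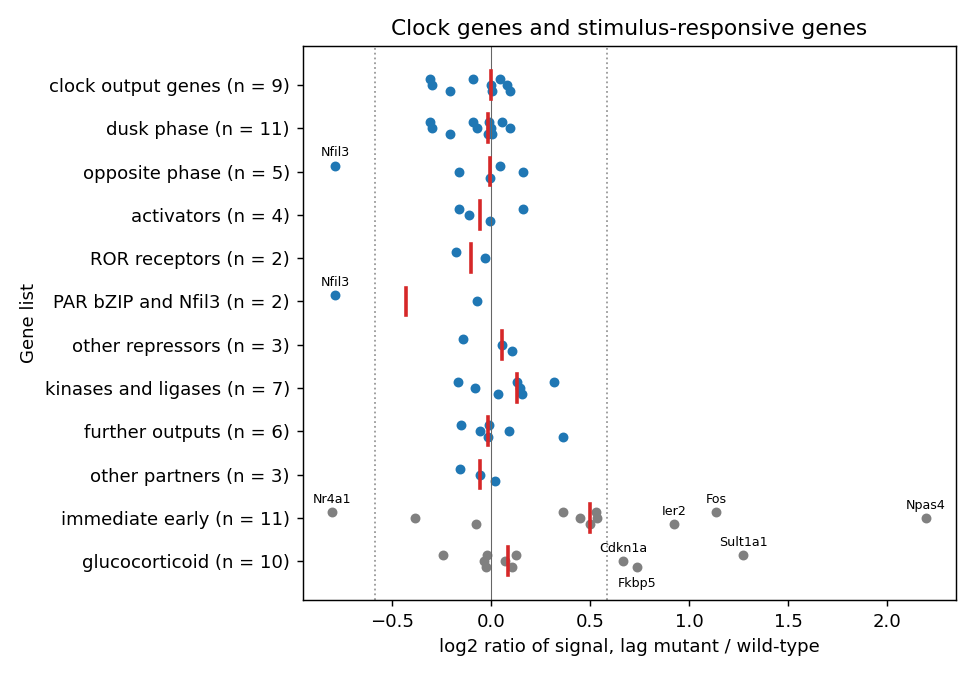
Ratio of mutant to wild-type signal (log2) by gene list; each point is a gene above background, the red mark is the list's median and the dotted lines stand at 1.5-fold. Genes past 1.5-fold are named: among the clock lists (blue) this is Nfil3, which stands on 2 lists, and among the immediate early and glucocorticoid lists (grey) there are 7.

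Of all 31 other clock genes on the lists, 27 were above the level, 1 was under it on both arrays and 3 were not analysed here. By the brightest probe set, their median log2 ratio was -0.01, 16 were lower and 11 higher, and Nfil3 was the one past 1.5-fold. Rora and Rorb, nuclear receptors that activate Arntl, had 1184 and 1048, and 1098 and 1074. Bhlhe40, a repressor at E-boxes, had 578 and 524, Cipc, an inhibitor of CLOCK, 2031 and 2183, and Arntl2, a relative of Arntl, 113 and 105. The 7 measured kinases and ubiquitin ligase parts that set the life time of PER and CRY proteins lay between -0.17 and 0.32, with Csnk1e, casein kinase 1 epsilon, at 2675 and 2983 and Csnk1d, its close relative, at 2645 and 2350. The 6 measured further outputs lay between -0.15 and 0.36, the highest being Rgs16, a regulator of G protein signalling whose probe sets went both ways. Timeless, Tipin and Nono lay between -0.16 and 0.02. Other probe sets of several of these genes spread both ways, from -0.75 to 0.44 for Nono and from -1.04 to 0.34 for Btrc. Those of Klf9 lay from -0.27 to 0.57. All 4 of Clock, from -0.79 to -0.004, and all 3 of Rorb, from -0.96 to -0.03, were lower. For Gsk3b 5 of 6 were lower, down to -1.09, and for Rgs16 1 of 3 was, at -0.98.

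Per1 also belongs to the immediate early genes and to the genes that glucocorticoids raise. Those are set beside it, each by its brightest probe set. Of 11 immediate early genes 8 had higher signals in the mutant, with Npas4 at 173 and 790, Fos at 1562 and 3437 and Ier2 at 404 and 767, while Nr4a1, at 1564 and 896, Arc, at 234 and 179, and Egr1, at 6441 and 6116, were lower, as Per1 was, at 544 and 439. Of 10 glucocorticoid genes 6 were higher and 4 lower, with Fkbp5 at 732 and 1217, Cdkn1a at 1120 and 1778, Sult1a1 at 149 and 361 and Sgk1 at 2653 and 2241. Of the lower glucocorticoid genes, Sgk1 was at a log2 ratio of -0.24, and Tsc22d3, Zbtb16 and Plin4 lay between -0.04 and -0.02. For some genes other probe sets went the other way. Those of Tsc22d3 reached 0.625, those of Fkbp5 went down to -0.113 and those of Egr2 lay from -0.245 to 0.530. Past 1.5-fold, 3 immediate early genes were higher and 1 lower, and 3 glucocorticoid genes were higher and 0 lower. The median ratio was 0.50 for the immediate early and 0.09 for the glucocorticoid list. Each list thus held genes that, like Per1, were lower, and both medians were above 0. The part of either stimulus in the Per1 value was not tested.

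Marker genes of the tissue and of its cell types were read as well, and several differed far more than the clock genes. Each is again given by its brightest probe set. The forebrain genes Neurod6, Tbr1 and Emx1 were above the level on both arrays and all 3 were higher in the mutant, with a median log2 ratio of 0.56 and with Neurod6 at 3338 and 4557. The single Kif14 probe set was under background on both arrays, so it does not check the labels. All 7 measured myelin genes were at least 5.18-fold lower in the mutant by this value, with summed signals of 34492 (wild-type) and 2380 (mutant). No clock gene differed by a comparable size. Of the 8 Mbp probe sets above the level 6 were lower, and the highest log2 ratio was 0.145. All 4 genes of monoamine neurons of the midbrain and hindbrain were lower by 2-fold or more (median -1.46, summed signals 1041 and 360), and 3 of the 4 cerebellum genes were, with sums of 2177 and 1667 over the 4. All 3 endothelial and all 4 astrocyte genes were lower by less than 1.5-fold, with medians of -0.46 and -0.23. Their other probe sets did not all go that way. Of those above the level, 2 of 4 were lower for the endothelial gene Flt1, with ratios up to 0.455. For the astrocyte genes Slc1a2 and Gja1 3 of 4 and 4 of 6 were lower, with ratios up to 0.189 and 0.042. Of the 4 microglia genes 3 were higher by less than 1.5-fold, with a median of 0.29. Of 9 genes for the hypothalamus and the suprachiasmatic nucleus, the seat of the master clock, 7 were above the level. Avp, a neuropeptide of that nucleus and of other hypothalamic neurons, was at 411 and 1678, Pmch, of the lateral hypothalamus, at 836 and 1977, and Hcrt, of the same area, at 140 and 251. Vip, a peptide of the nucleus and of cortical interneurons, was at 1013 and 307, and Prok2, a clock-controlled secreted signal of the nucleus, went from 115 to 28.2, under background, lower by at least 2.03-fold. The genes of this list thus went both ways, 4 higher and 3 lower, with summed signals of 3209 and 5093, and Six6, a defining gene of the developing hypothalamus, was under background on both arrays. Of the pineal genes, Tph1 and Crx were under background on both arrays. Aanat, which encodes an enzyme of the melatonin pathway and is among the most rhythmic of transcripts, went from 38.6, under background, to 102. Its log2 ratio, a bound of 0.86, lay inside the central 95% of the dimmest brightness quartile, whose upper limit was 0.90. In RNA of a whole tissue, fewer cells of a type and less RNA per cell cannot be told apart. The study does not state where the cerebrum was cut from the midbrain and cerebellum, and the part of that in these values was not tested. The part of these differences in the clock genes' values was not tested.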

How the data were processed

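Cerebrum RNA from P14 mice was hybridised to Affymetrix Mouse Genome arrays, 1 array per genotype. The authors summarised each probe set by MAS5 under its defaults with global scaling to a target that no source used here gives, and deposited linear intensities without detection calls. The arrays' medians were 105 (wild-type) and 98.3 (mutant). The annotation gives 34958 probe sets a single gene, 932 several genes and 9211 no gene. Symbols were updated through the RefSeq table of GRCm38.p6, where 34754 matched, giving 18194 genes. The background level was the higher of both arrays' 95th percentiles, 56.5 and 50.9, over 153 probe sets of gene families not transcribed in brain (olfactory, taste and vomeronasal receptors, hair keratin-associated proteins and defensins). A common level keeps the direction of a ratio, which a level for each array can turn. Members and lists were chosen with earlier results of these data known. The members were named in full, with the genes of the 4 lists of activators, ROR receptors, PAR bZIP factors with Nfil3 and repressors, and any other listed gene past 1.5-fold; further genes were named after their values were seen. No test was run. The calculation was tested on simulated data with planted changes larger than the ratio of any member, so differences as small as the members' were not covered. The 2 arrays limit the precision. Python 3.11.15, numpy 2.4.6, pandas 2.3.3 and matplotlib 3.10.9 were used.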

Additional observations from a re-analysis of the deposited data

How the results depend on the processing

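No paired analysis was possible because there is only 1 array for the wild-type and 1 for the mutant. In each of the 8 alternative settings, 0 of the clock genes with a value were past 1.5-fold or 2-fold in either direction. The settings that change only the background level could not move a member's ratio, since each brightest probe set with a value was above the level on both arrays. They are therefore not separate checks of these ratios. Ratios of single members moved by less than the SD across genes of their brightness, and Nr1d1, under background at the 99th percentile, had no value there. The medians lie so near 0 that their sign depends on the setting. That of the 9 members was -0.147 with a gene's probe sets averaged, 0.015 with quantile normalization, 0.086 with equal array medians and 0.0010 with a 99th-percentile background level. That of the dusk-phase list was -0.134 with probe sets averaged and 0.074 with equal medians. That of the opposite list was 0.022 with probe sets averaged, 0.011 with quantile normalization and 0.084 with equal medians. Equal medians move the median of all genes from 0.010 to 0.097. Counts over all genes depended on the background level. With the 99th percentile, 233 were at least 1.5-fold lower and 220 higher, and 67 and 31 past 2-fold. With no level these were 1689, 2226, 980 and 1232. At the 90th percentile 145 genes were 2-fold higher or more, and with equal medians 128.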
